A study of Rattus norvegicus with 154 samples.

Results

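Lungs of control rats taken 6 h after treatment were compared with lungs of control rats taken 24 h after treatment, both labelled with a dose of 0 mg of the agent under study, although the description of every control array also carries the words of exposure. The members were all 12 animals labelled with 0 mg of sulfur mustard at these times, which gave 24 of the 154 arrays and 12 of the 77 animals of the series. They formed 4 groups of 3 rats: saline at 6 h, saline at 24 h, isopropyl alcohol at 6 h and isopropyl alcohol at 24 h. Isopropyl alcohol was the vehicle in which other rats received the agent, an alkylating blister agent, at 1, 3 or 6 mg, and lungs were also taken at 30 min, 1 h and 3 h. Messenger RNA was measured in lung on Affymetrix RAE230A arrays, with 2 chips per animal. Strain, sex, age, route of treatment, light cycle and the clock times of treatment and killing were not given in the sources used here, so hours after handling and time of day cannot be told apart. No untreated rats were among the samples analysed, so both times carry a treatment with vehicle.

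Lung is one of the organs with a strong daily rhythm of gene expression. In the circadian clock, Bmal1 and Clock switch on the Per and Cry repressors, the nuclear receptors Nr1d1 and Nr1d2, and output factors such as Dbp, and the repressors then shut Bmal1 and Clock off again. Adrenal glucocorticoids, which rise before the active phase of the day and also after handling or injection, act through a receptor that induces Fkbp5, metallothioneins, Tsc22d3 and the clock gene Per1.

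Each animal's value is the mean over its chips of the log2 intensity after an offset of 7 was added, and intensities below are these values turned back to the linear scale. Array medians of the 12 animals lay between 76.5 and 100.1. Saline replicate 2 at 6 h stood apart: its median correlation with the other 11 animals was 0.868, against 0.939 to 0.963 for each of those 11. Values without it are given beside the results that it moved most. Animals of both times were scanned together in 3 of 6 pairs of scan days, which held 8 of the 12 animals. The log2 ratio of 3' to 5' GAPDH probe sets, a measure of RNA integrity, was 0.577 ± 0.424 at 6 h and 0.965 ± 0.403 at 24 h (SD, n = 6 each, exact permutation test within vehicle, two-sided p = 0.14). The beta-actin ratio was 0.885 ± 0.58 and 1.17 ± 0.653 (exact permutation test, two-sided p = 0.42), and the smallest p this design allows is 0.005. The surfactant and club cell markers that define lung were present, with 12 of 16 on the array and all 12 above the filter on low values, and no tested member of any gene list was listed at 0.

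Between 6 h and 24 h, 16 of 11106 tested probe sets differed at an adjusted p under 0.05 (limma, two-sided, Benjamini-Hochberg), 0.144% of those tested. Of these, 10 were higher at 6 h (0.09%) and 6 were lower (0.054%), and 15 of the 16 had no overlap between the 6 animals of each time. A lack of overlap by itself was seen for 149 probe sets, 1.34% of those tested, with 68 higher (0.612%) and 81 lower (0.729%). An unadjusted p under 0.05 was reached by 1235 probe sets (11.1%). All 16 had the called direction in both vehicles, and also within the 3 scan-day pairs with animals of both times. For the 15 without overlap, the same direction in any such subset follows from the lack of overlap and is no separate support. The genes below were higher or lower in lung RNA as a whole, where fewer cells of a type and less RNA per cell cannot be told apart.

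Fkbp5, the co-chaperone of the glucocorticoid receptor that is itself induced by the receptor, had the largest rise at 6 h among the called probe sets. Its lowest, median and highest intensities were 188.4, 316.1 and 421.2 at 6 h and 68.3, 78.4 and 114.9 at 24 h. Every 6 h animal was above every 24 h animal, a 3.43-fold rise (log2 difference 1.78, SE 0.19, adjusted p = 0.00241). The rise passed the test with any single one of the 12 animals left out, at an adjusted p of at most 0.0138.

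Il1r2, a decoy receptor that binds interleukin 1 without signalling and is known to be induced by glucocorticoids, rose 2.41-fold. Its intensities were 44.3, 61.4 and 96.3 at 6 h and 19.0, 21.8 and 31.6 at 24 h (log2 difference 1.27, SE 0.18, adjusted p = 0.0152), so the times did not overlap. Without the 3 animals scanned on the 13th and 14th days, a fit chosen after the data were seen, its adjusted p was 0.11 and the log2 difference 1.28.

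Adh1c, a class I alcohol dehydrogenase that oxidises alcohols, retinol among them, rose 2.13-fold at 6 h. Its intensities were 302.1, 455.1 and 506.8 at 6 h and 177.5, 198.0 and 221.5 at 24 h (log2 difference 1.09, SE 0.13, adjusted p = 0.00376). The log2 difference was 1.07 in the saline animals and 1.10 in the animals given isopropyl alcohol, and the 6 h animals were above the 24 h animals in both. Leaving out any single animal kept the call, with an adjusted p of at most 0.0192.

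Mt2A, a metallothionein that binds zinc and copper and is induced by metals and glucocorticoids, rose 2.1-fold, with intensities of 388.7, 495.8 and 800.5 at 6 h and 206.3, 241.3 and 291.3 at 24 h (log2 difference 1.07, SE 0.16, adjusted p = 0.0212). The highest 6 h value was that of saline replicate 2, and without this animal the adjusted p was 0.00414. Because metallothionein promoters are known for their metal response elements, the Mt2A window from 250 bases before to 50 bases after the start is shown (RefSeq, GRCr8, chr19:10838659-10838958, minus strand). Capitals mark matches to the core of the metal response element, searched as TGCACNC or TGCGCNC on both strands.
Mt2A promoter: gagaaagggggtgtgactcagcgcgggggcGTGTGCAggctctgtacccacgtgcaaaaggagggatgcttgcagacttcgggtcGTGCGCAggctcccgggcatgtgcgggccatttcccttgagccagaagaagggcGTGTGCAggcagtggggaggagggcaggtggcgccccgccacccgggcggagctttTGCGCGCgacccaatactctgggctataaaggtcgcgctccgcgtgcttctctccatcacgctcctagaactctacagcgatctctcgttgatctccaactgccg
There were 4 such matches, beginning 220, 165, 111 and 55 bases before the start, and none overlapped another motif searched. At least 1 match was held by 24.2% of the 33469 RefSeq promoter windows. Matches were also in 6 of 9 promoters of called genes, Mt2A included, and in 4 of 13 clock promoters. Dbp and Clock held 4 matches each, so this number was not particular to Mt2A. The short glucocorticoid receptor motif AGAACA, held by 20.7% of the windows, was in none of the 9 promoters of called genes that the table held, Fkbp5 and Mt2A among them. Sites outside these windows were not searched, so this does not show whether the receptor acts on these genes.

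Atp1b1, the beta subunit of the sodium pump that drives fluid out of the air spaces, was measured by 2 probe sets, and both passed. The first had intensities of 899.7, 1123.3 and 1248.5 at 6 h and 456.2, 556.4 and 661.5 at 24 h (log2 difference 0.93, adjusted p = 0.0105), and the second gave a log2 difference of 0.68 (adjusted p = 0.0324). Tnfrsf12a, the receptor for the cytokine TWEAK, had intensities of 64.2, 93.9 and 104.5 at 6 h and 34.1, 44.2 and 57.4 at 24 h (log2 difference 0.88, SE 0.15, adjusted p = 0.0446). Pglyrp1, an antibacterial peptidoglycan-binding protein stored in neutrophil granules, had intensities of 88.5, 94.3 and 116.6 at 6 h and 55.8, 62.4 and 72.9 at 24 h (log2 difference 0.56, SE 0.09, adjusted p = 0.0324). Animals of the 2 times did not overlap for these genes. Rprml, named here after its values were seen, had intensities of 81.1, 141.4 and 157.0 at 6 h and 34.5, 42.6 and 86.8 at 24 h (log2 difference 1.30, SE 0.21, adjusted p = 0.0309), and 1 animal of each time overlapped. A probe set with no gene in the probe table also rose 2.25-fold (log2 difference 1.17, SE 0.13, adjusted p = 0.00278).

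Spon2, a secreted matrix protein that acts in innate immune recognition, had the largest fall at 6 h among the called probe sets. Its intensities were 151.9, 223.5 and 255.1 at 6 h and 469.0, 541.5 and 670.3 at 24 h, so the highest 6 h animal was far below the lowest 24 h animal. The level at 24 h was 2.63 times that at 6 h (log2 difference -1.40, SE 0.15, adjusted p = 0.00241), and the call was kept with any single animal left out.

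Scd, the stearoyl-CoA desaturase that makes monounsaturated fatty acids for membranes and surfactant lipid, fell, with intensities of 117.6, 151.0 and 209.8 at 6 h and 236.2, 347.0 and 611.2 at 24 h (log2 difference -1.15, SE 0.19, adjusted p = 0.0324). Ptp4a3, a tyrosine phosphatase of the PRL family, had intensities of 113.5, 149.8 and 203.2 at 6 h and 223.6, 273.9 and 290.7 at 24 h (log2 difference -0.79, SE 0.13, adjusted p = 0.0324). Atp6v1c2, a subunit of the proton pump of acidic vesicles, had intensities of 362.1, 543.8 and 598.3 at 6 h and 755.1, 850.7 and 1118.4 at 24 h (log2 difference -0.76, SE 0.12, adjusted p = 0.0324). In each of these 3 genes every 6 h animal was below every 24 h animal. Epha4, an ephrin receptor, was called by its dimmer probe set (log2 difference -0.77, SE 0.13, adjusted p = 0.0324) and named after its values were seen. The brighter Epha4 probe set had a log2 difference of -0.60 and did not pass. A probe set without a gene in the table fell as well (log2 difference -0.72, SE 0.11, adjusted p = 0.0262).

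**Figure D1:**
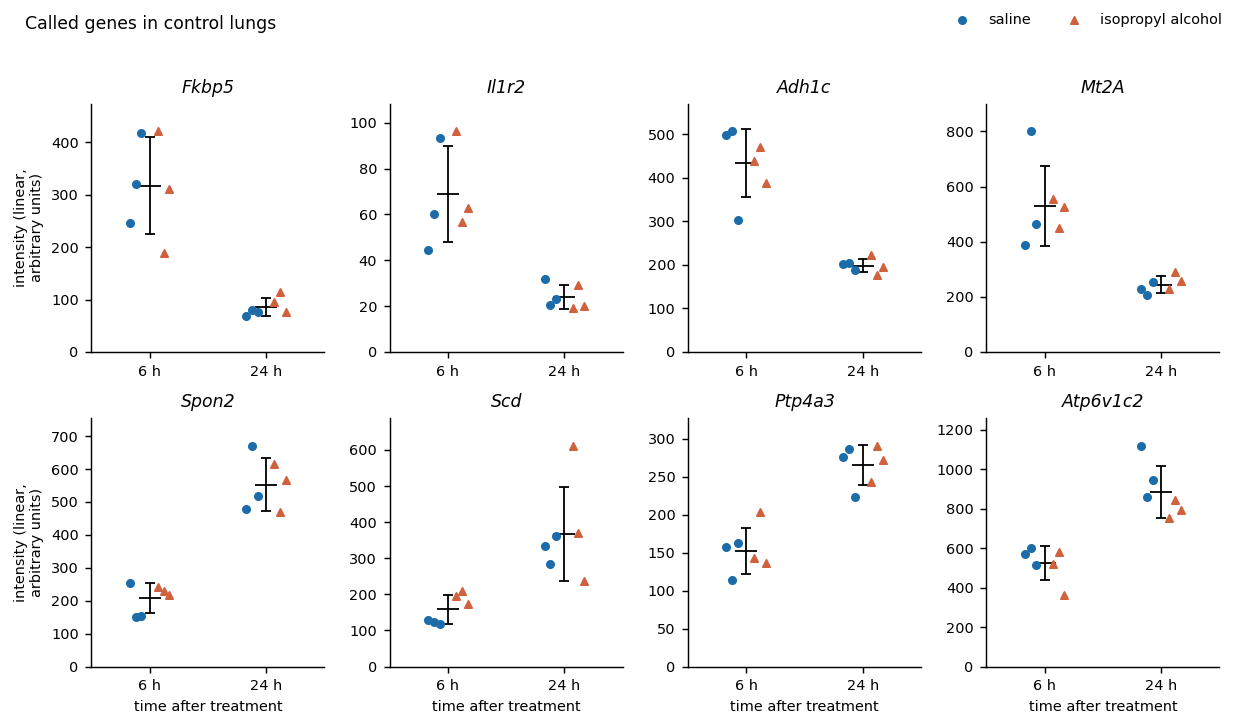
Intensity (linear, arbitrary units) of 8 called genes in the 12 control animals, by time after treatment, with points for animals, colours and shapes for vehicles, and bars for the mean and SD of the 6 animals of a time. The points of the 2 times do not overlap in any panel, with Fkbp5 between 188.4 and 421.2 at 6 h and between 68.3 and 114.9 at 24 h.

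The number of calls depended on the animals and terms in the fit. With single animals left out it was 21 without saline replicate 2 at 6 h, 19 without isopropyl alcohol replicate 2 at 6 h, 20 without isopropyl alcohol replicate 1 at 24 h, and 5 to 10 without any one of the other 9 animals, and 5 of the 16 passed in every such fit. They were Fkbp5, Adh1c, 1 probe set of Atp1b1, Spon2 and the probe set without a gene that rose. Of the 21 called without saline replicate 2 at 6 h, 15 were among the 16, and the one no longer called was Tnfrsf12a (adjusted p = 0.0638). Without the 3 animals scanned on the 13th and 14th days 6 were called, all among the 16. With scan-day pair as a fixed block, 2 were called, Spon2 (log2 difference -1.58, adjusted p = 0.0196) and Il1r2 (1.42, adjusted p = 0.0196), and all 16 kept their direction. There Fkbp5 had a log2 difference of 1.73 and an adjusted p of 0.144. With the GAPDH ratio as a covariate 5 of the 16 passed.

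Within the saline animals, in a fit of all 4 groups that share 1 estimate of spread, 2 probe sets passed (0.018%), Fkbp5 (2.00, adjusted p = 0.0457) and Spon2 (-1.57, adjusted p = 0.0457), both given as log2 differences. Within the animals given isopropyl alcohol limma called none (0%), with 528 at an unadjusted p under 0.05. The difference of the change between vehicles was called for none of the 11106 probe sets (0%) by limma, with 417 at an unadjusted p under 0.05. The smallest unadjusted p values for this difference were those of Rgs1, a regulator of G protein signalling in lymphocytes, and Pnpt1, a mitochondrial RNase. Rgs1 had log2 differences of 0.21 in saline and -1.28 in isopropyl alcohol, and Pnpt1 of 0.43 and -0.66 (adjusted p of the difference 0.968 for both).

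The same times were available in 6 other rats, 3 at 6 h and 3 at 24 h, which had received 1 mg of sulfur mustard in isopropyl alcohol and share no animal with the controls. All 16 probe sets called in controls had the same sign there, against 66.9% of all tested probe sets. Of the 16, 15 had an unadjusted p under 0.05, as did 14.2% of all probe sets, but none passed the adjusted test, in which limma called 63 probe sets (0.567%). Fkbp5 averaged 391.3 at 6 h and 139.8 at 24 h at 1 mg (log2 difference 1.37, adjusted p = 0.0695). Spon2 averaged 204.9 and 464.3 (-1.12, adjusted p = 0.082). Adh1c gave 1.17, Mt2A 1.18, Il1r2 1.16 and Rprml 1.51 as log2 differences. Ptp4a3, at -0.26 against -0.79 in controls, was the one that missed an unadjusted p of 0.05 (limma, adjusted p = 0.582). Whether the change differed between controls and 1 mg was not tested. The animal numbers in the labels form separate ranges for 6 h and 24 h, and the 1 mg rats are numbered among or next to controls of the same time. Anything shared by animals of such a range cannot be told apart from time, in controls or at 1 mg.

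**Figure D2:**
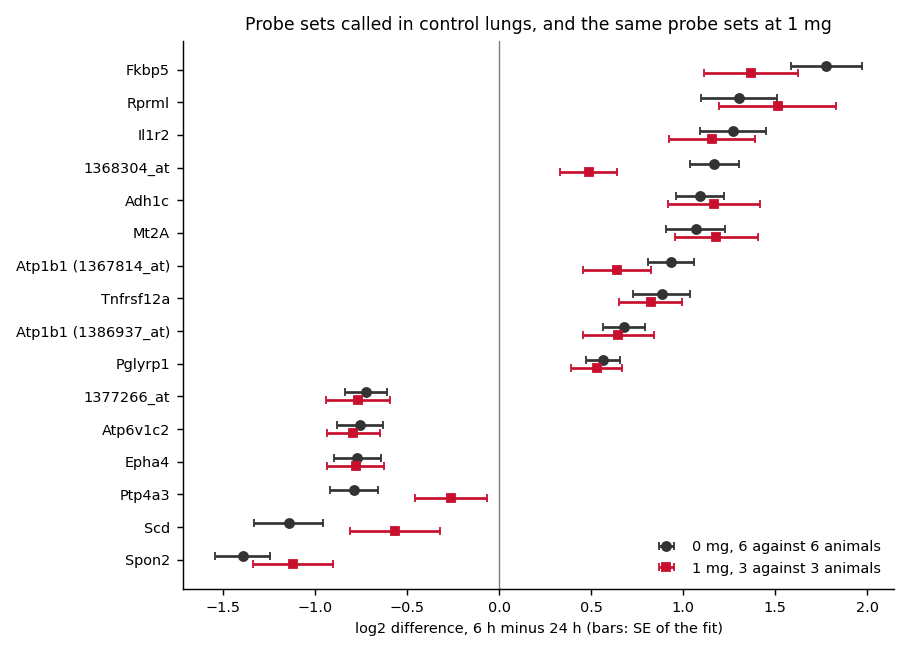
Log2 difference (6 h minus 24 h) of the 16 probe sets called in control lungs, in the 12 controls (black circles) and in the 6 animals given 1 mg (red squares), with bars for the SE of each fit. All 16 lie on the same side of 0 in both sets, with Fkbp5 at 1.78 and 1.37 and Ptp4a3 at -0.79 and -0.26.

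The 18 control animals at 30 min, 1 h and 3 h place these levels in time. Each of these times was set against the same 24 h animals, so the comparisons share them and are given side by side only. Mean intensities of Fkbp5 at 30 min, 1 h, 3 h, 6 h and 24 h were 98.9, 272.3, 216.8, 317.5 and 85.4, and it was called against 24 h at 1 h (log2 difference 1.52, adjusted p = 0.00758) and at 3 h (1.21, adjusted p = 0.0243). In those comparisons 0.045% and 0.378% of probe sets were called, and 8.27% at 30 min. The 30 min animals were scanned on days that held no 24 h control, so time and scan day cannot be told apart there. The mean of Fkbp5 at 30 min was close to that at 24 h, and the later means were higher. Mean intensities of Adh1c were 256.1, 327.5, 346.3, 434.5 and 197.9 at the same times, those of Mt2A 208.7, 334.8, 379.1, 530.5 and 244.2, and those of Il1r2 26.4, 48.0, 39.4, 68.9 and 23.9. In these 3 genes the highest mean was at 6 h, and of their 30 min, 1 h and 3 h differences from 24 h, the one that passed was that of Adh1c at 3 h (adjusted p = 0.0292). The called genes were chosen by their 6 h values against 24 h. This choice favours an extreme mean at 6 h, here and in the called genes that follow.

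Spon2 had its lowest mean at 6 h, with means of 490.5, 455.0, 363.8, 208.2 and 552.9 at 30 min, 1 h, 3 h, 6 h and 24 h. Scd also had its lowest mean at 6 h, with 260.2, 501.9, 342.0, 158.1 and 365.8. At 1 h its animals spread from 112.0 (saline replicate 2), below every 6 h animal, to 1143.3 (saline replicate 3). Atp6v1c2 differed from Spon2 and Scd, since its mean was low at each time before 24 h: 531.6, 550.2, 560.8, 523.4 and 885.4. It was called against 24 h at 30 min, 1 h and 3 h (adjusted p = 8.07e-04, 0.0211 and 0.0202), so this gene was higher at 24 h than at each of the 4 earlier times.

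Of the 22 genes of the core clock and its outputs, 17 were on the array and 15 passed the filter on low values. None of the 15 passed the test of 6 h against 24 h (limma), where 7 had an unadjusted p under 0.05, all of them higher at 6 h. Of the 8042 tested genes, 379 were higher and 501 lower at that threshold. The median log2 difference of the 15 was 0.55, against -0.01 over the 8042 tested genes, and it lay between 0.33 and 0.61 with single animals left out, the lower value without saline replicate 2 at 6 h.

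Per2, a repressor of the clock, came nearest to a call by unadjusted p. Its intensities were 120.0, 198.2 and 330.4 at 6 h and 42.9, 97.2 and 118.8 at 24 h, which did not overlap, although the lowest 6 h and the highest 24 h animal were almost level (log2 difference 1.11, SE 0.25, adjusted p = 0.108). The log2 difference was 1.70 in saline and 0.52 in isopropyl alcohol, and the difference between vehicles was not called (adjusted p = 0.968). The Per2 promoter window (RefSeq, GRCr8, chr9:99496944-99497243, minus strand) is shown because it holds a match to the D-box, the site bound by Dbp, Tef, Hlf and Nfil3, all of which belong to the same list. Capitals mark the match, searched as TTANGTAA on both strands.
Per2 promoter: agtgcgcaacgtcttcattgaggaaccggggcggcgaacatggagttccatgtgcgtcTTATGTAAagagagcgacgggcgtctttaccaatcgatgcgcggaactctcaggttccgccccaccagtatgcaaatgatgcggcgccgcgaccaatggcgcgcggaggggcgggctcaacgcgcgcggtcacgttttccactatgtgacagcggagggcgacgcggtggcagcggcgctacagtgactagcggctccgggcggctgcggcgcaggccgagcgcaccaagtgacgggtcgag
The match begins 192 bases before the start and overlaps no other motif searched. A D-box match was held by 2.24% of all promoter windows and by this 1 of the 13 clock promoters that the table held. The E-box CACGTG, bound by Bmal1 and Clock, was in 6.42% of all windows and in 2 of the 13, those of the repressors Bhlhe40 and Bhlhe41. Of the 9 promoters of called genes in the table it was in 1, that of Mt2A. Only these exact letters were searched and not variants of the E-box. The counts therefore do not show which promoters lack a site for Bmal1 and Clock.

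No output factor of the clock passed the test. Dbp, a factor that binds the D-box, had intensities of 85.1, 179.3 and 236.9 at 6 h and 24.0, 62.0 and 242.8 at 24 h, and the highest 24 h animal, saline replicate 1, was above all 6 h animals (log2 difference 1.25, SE 0.45, adjusted p = 0.328). Hlf, of the same family, had 158.6, 171.5 and 299.4 at 6 h and 109.1, 121.7 and 135.1 at 24 h, without overlap (log2 difference 0.58, SE 0.14, adjusted p = 0.119). Nr1d1, a nuclear receptor that represses Bmal1, had 294.2, 359.4 and 488.6 at 6 h and 83.6, 187.7 and 585.2 at 24 h (log2 difference 0.83, SE 0.43, adjusted p = 0.498), and its 24 h animals spanned the whole range of the 6 h animals. With scan-day pair as a fixed block the log2 difference of Nr1d1 was 1.71 (adjusted p = 0.0509) and that of Dbp 2.17 (adjusted p = 0.116). Nr1d2, the partner of Nr1d1, had log2 differences of 0.67 and 0.77 for its 2 probe sets, the first with an adjusted p of 0.41.

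Among the repressors, Per1, which glucocorticoids also induce, had a log2 difference of 0.66 (adjusted p = 0.23), Cry2 0.28 (0.397), Bhlhe40 0.60 (0.334) and Bhlhe41 0.19 (0.58). The deubiquitinase Usp2, a clock output, had 0.55 (0.538), with a second probe set at 0.57. Saline replicate 2 at 6 h had the highest Usp2 value, 240.3, and without this animal the log2 difference was 0.24 (adjusted p = 0.647). The activators lay below 0: Bmal1 had a log2 difference of -0.27 (0.693) and Clock -0.20 (0.58), with a second Clock probe set at 0.07. Nfil3, which represses D-box genes, had -0.38 (0.565). The casein kinases that mark Per proteins for decay had -0.15 (Csnk1d, 0.672) and 0.28 (Csnk1e, 0.692). Without saline replicate 2 at 6 h the log2 differences were -0.42 for Bmal1, -0.12 for Clock, -0.06 for Csnk1d and 0.11 for Csnk1e. The other 3 Csnk1d probe sets lay between 0.24 and 0.28, on the other side of 0. Per3 and Tef were on the array and did not pass the filter on low values.

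Across the 5 control times, mean intensities of Per2 were 72.6, 70.2, 125.0, 206.9 and 91.4 at 30 min, 1 h, 3 h, 6 h and 24 h. Those of Dbp were 83.8, 47.5, 135.6, 172.2 and 89.0, and those of Nr1d1 266.6, 159.7, 395.8, 376.7 and 271.8. Nfil3 ran the other way in these means, with 88.0, 93.6, 64.8, 49.9 and 64.9. The low Nfil3 mean at 6 h came from the saline animals (25.4, 30.0 and 37.5). The isopropyl alcohol animals had Nfil3 values of 52.0 to 83.2 at 6 h and 54.7 to 76.4 at 24 h. The SD within a time was often as wide as the steps between times, for Dbp 54.2 at 6 h and 83.4 at 24 h (n = 6 each). Of the 15 clock genes, 1 passed against 24 h at 30 min, 1 h or 3 h, Csnk1e at 30 min (log2 difference 0.72, adjusted p = 0.0296). The probe sets most like Dbp over the 30 control animals, taken since Per3 was not tested, were Nr1d1 (Pearson r = 0.893), Nr1d2 (0.881 and 0.842 for its 2 probe sets), Per2 (0.841) and Bhlhe41 (0.749), given as a description over animals that share arrays, scan days and times.

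**Figure D3:**
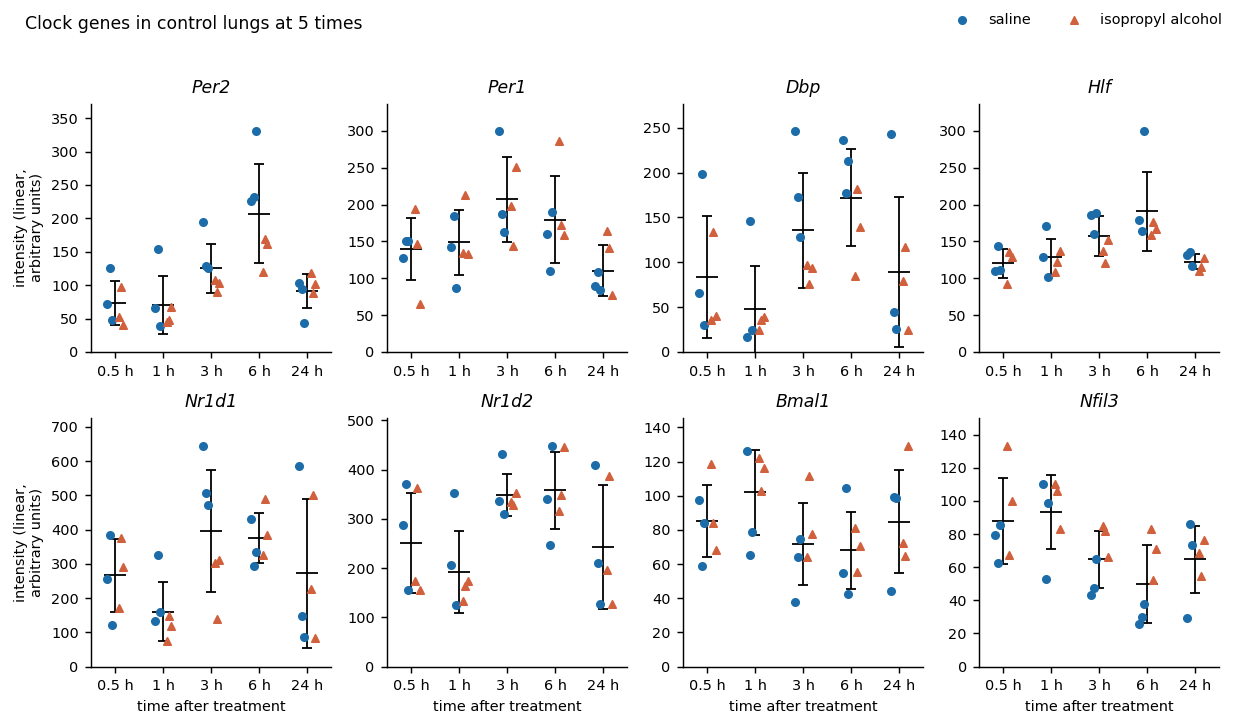
Intensity (linear, arbitrary units) of 8 clock genes in the 30 control animals by time after treatment, with points for animals, colours and shapes for vehicles, and bars for the mean and SD of 6 animals per time. Mean Per2 runs from 70.2 at 1 h to 206.9 at 6 h and 91.4 at 24 h, while the 24 h animals of Dbp and Nr1d1 spread over most of the axis.

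Genes that respond to glucocorticoids were measured by 16 of 20 members, of which 2 rose, Fkbp5 and Mt2A, and none fell (median log2 difference 0.46). Of all 8042 tested genes, 8 rose and 4 fell. The median was 0.60 in saline, 0.43 in isopropyl alcohol and 0.17 at 1 mg. It was 0.20 at 30 min, 0.38 at 1 h and 0.40 at 3 h, each against the same 24 h animals. Of the 16, 14 had a positive log2 difference at 6 h, as did 3864 of all 8042 tested genes. Among the 14 were Tsc22d3 (log2 difference 0.63, adjusted p = 0.179), an anti-inflammatory leucine zipper protein, and Klf9 (log2 difference 0.61, adjusted p = 0.23), a glucocorticoid-induced transcription factor. Neither passed, and both were named after their values were seen. Sgk1 of the same list had a log2 difference of 0.15, and Dusp1 (-0.03) and Angptl4 (-0.002) were negative. At 1 mg 11 of the 16 were positive, with Tsc22d3 at 0.30, Klf9 at 0.13, Sgk1 at -0.15 and Dusp1 at -0.14.

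Neutrophil genes had the highest median of the 31 lists, 1.03, with 5 of 18 members tested and none called. Mmp8, the neutrophil collagenase, had intensities of 42.4, 65.5 and 162.2 at 6 h and 17.8, 27.1 and 40.7 at 24 h, which did not overlap (log2 difference 1.20, SE 0.26, adjusted p = 0.098). Its highest value was that of saline replicate 2, without which the log2 difference was 0.95 (adjusted p = 0.0638). S100a8, a calcium-binding protein abundant in neutrophils, had 288.8, 369.5 and 526.5 at 6 h and 64.3, 116.8 and 393.8 at 24 h (log2 difference 1.40, SE 0.32, adjusted p = 0.112). Isopropyl alcohol replicate 2 at 24 h lay within the 6 h range of S100a8, and the other 24 h animals lay below it. The summed intensity of the 5 genes, among them Lyz2, which macrophages and alveolar cells also express, ran from 5905.9 to 14085.9 at 6 h and from 5501.3 to 18059.9 at 24 h, so the sums overlapped. Il1r2 and Pglyrp1, called above, are also known from neutrophils, and the part of these cells in those results was not tested. Of the 14 inflammatory cytokine, chemokine and adhesion genes tested, Il1r2 rose and none fell. Their median was 0.13 with all animals and -0.003 without saline replicate 2 at 6 h, and it was 0.19 in saline and -0.06 in isopropyl alcohol.

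Cell cycle genes had a median log2 difference of 0.43 over 18 tested members, 15 of them positive, and none was called. Cdk1, the kinase that starts mitosis, had intensities of 84.3, 137.6 and 189.7 at 6 h and 52.8, 69.0 and 76.8 at 24 h, without overlap (log2 difference 0.93, SE 0.17, adjusted p = 0.072). Top2a, a topoisomerase of dividing cells, had 52.8, 97.0 and 120.4 at 6 h and 39.9, 47.5 and 52.9 at 24 h, with isopropyl alcohol replicate 1 at 6 h just below the highest 24 h animal (log2 difference 0.84, SE 0.17, adjusted p = 0.0813). Means of Cdk1 at 30 min, 1 h, 3 h, 6 h and 24 h were 121.7, 99.2, 117.5, 135.1 and 66.1, and those of Top2a 114.9, 84.8, 91.2, 91.7 and 46.7. Both were called against 24 h at 30 min and at 3 h in the fit of all control times (adjusted p = 0.0255 and 0.0202 at 3 h), and both had their lowest mean at 24 h. At 1 mg the log2 differences were 0.28 and 0.42.

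The matrix and remodelling list had a median of 0.17 over 24 tested members, with none called. Tnc, a matrix protein made in remodelling tissue, had intensities of 222.7, 301.9 and 405.2 at 6 h and 109.6, 125.4 and 241.5 at 24 h (log2 difference 1.06, SE 0.21, adjusted p = 0.0813) and was called with saline replicate 2 at 6 h left out (adjusted p = 0.0494). Its means at the 5 times were 333.3, 256.3, 300.9, 305.9 and 145.3, lowest at 24 h, and its difference from 24 h was called at 30 min and at 3 h. Ccn2, a matricellular growth factor, had a log2 difference of 0.81 (adjusted p = 0.19).

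Among 21 oxidative stress and glutathione genes none was called (median 0.21). Gsta1, a glutathione transferase, had intensities of 665.1, 840.3 and 936.0 at 6 h and 524.0, 573.4 and 591.4 at 24 h, without overlap (log2 difference 0.52, SE 0.10, adjusted p = 0.0834), and was called when saline replicate 2 at 6 h was left out (adjusted p = 0.0342). Hmox1, heme oxygenase, had a log2 difference of 0.76 (adjusted p = 0.109) in controls of both vehicles, and at 1 mg, given in isopropyl alcohol, it was called (1.51, adjusted p = 0.00622). Control Hmox1 in saline was 134.6 to 171.7 at 6 h and 102.3 to 125.4 at 24 h. In isopropyl alcohol it was 172.3 to 313.5 and 101.5 to 144.4. The median of the oxidative stress list was 0.07 in saline and 0.33 in isopropyl alcohol. Whether Hmox1 differed between controls and 1 mg was not tested. In lipid and fuel metabolism, Scd fell and none of the other 23 tested members was called (median 0.14). Lpl, which releases fatty acids from circulating fat, was named after its values were seen and did not pass (log2 difference 0.62, adjusted p = 0.0651).

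Several lists lay on the other side of 0 without any called member. Heat shock and temperature-responsive genes had a median log2 difference of -0.27, with 13 of 15 members negative. Hspb1, a small heat shock protein, had intensities of 586.9, 646.8 and 822.5 at 6 h and 861.6, 1068.0 and 1540.6 at 24 h, without overlap (log2 difference -0.70, SE 0.15, adjusted p = 0.0991), and was called at 1 mg (-1.02, adjusted p = 0.0359). Ahsa1, an activator of Hsp90, had -0.55 (adjusted p = 0.116), and the cold-induced Rbm3, named after its values were seen, lay on the other side of 0 (log2 difference 0.44, adjusted p = 0.45). The endoplasmic reticulum chaperones had a median of -0.21 with 13 of 16 negative, led by Creld2 (-0.56, adjusted p = 0.176) and Hsp90b1 (-0.46, adjusted p = 0.212).

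All 18 interferon-induced genes tested had a negative log2 difference in controls, and none was called (median -0.28). Usp18, which limits interferon signalling, had intensities of 67.7, 114.7 and 127.7 at 6 h and 79.8, 178.3 and 538.0 at 24 h (log2 difference -0.84, SE 0.37, adjusted p = 0.429), so the 24 h animals ranged from within the 6 h range to far above it. The median of the list was -0.10 in saline and -0.37 in isopropyl alcohol, and it was -0.05 with scan-day pair as a block. At 1 mg all 18 were negative too, with a median of -0.93 and 8 called lower, where 0.567% of all probe sets were called in either direction. There Usp18 averaged 77.5 at 6 h and 1014.0 at 24 h (log2 difference -3.56, adjusted p = 0.00131), where the difference from controls was not tested.

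The markers of resident cells had no called member. The endothelial list had a median of -0.20 (18 tested), the surfactant and club cell list -0.16 (12), the alveolar type I list -0.11 (12) and the smooth muscle list -0.08 (14). Of the 18 endothelial genes, 8 had an unadjusted p under 0.05, all lower at 6 h, against 501 lower and 379 higher of the 8042 tested genes. Summed endothelial intensity ran from 10357.0 to 13446.1 at 6 h and from 12732.0 to 15386.2 at 24 h. The 4 ciliated cell genes tested were all negative (median -0.31), and Tppp3, a tubulin-binding protein of cilia, had intensities of 521.1, 757.5 and 937.1 at 6 h and 1050.4, 1137.6 and 1297.9 at 24 h, without overlap (log2 difference -0.65, SE 0.14, adjusted p = 0.098). The summed intensity of the 4 genes ran from 742.1 to 1205.5 at 6 h and from 1236.6 to 1546.2 at 24 h. Most of this sum was Tppp3, so it largely repeats the values of that gene. Foxj1 had a log2 difference of -0.18 (adjusted p = 0.735), Tekt1 -0.30 (0.497) and Rsph1 -0.32 (0.387), all by limma. Under quantile normalization the surfactant and alveolar type I medians were -0.02 and -0.01.

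Beside the neutrophil genes, the immune cell lists had medians of 0.08 for macrophages (9 tested), 0.02 for T and NK cells (13), -0.01 for B cells and MHC class II (9) and 0.20 for mast cells (5), and no member was called. The median of the T and NK cell list was -0.10 and that of the mast cell list 0.11 without saline replicate 2 at 6 h, and those of macrophages and of B cells and MHC class II also took both signs with single animals left out. Tissue that may adhere to lung was covered by cardiac and skeletal muscle (14 tested, median -0.25, all negative), red blood cells (3 tested, -0.36) and liver, thymus, fat and nerve (3 tested, 0.04), again with no member called. The red blood cell median ran from -0.59 to 0.02 with single animals left out, the higher value without saline replicate 1 at 24 h, and was 0.10 with scan-day pair as a block, and that of the liver, thymus, fat and nerve list also took both signs. The remaining lists had no called member, with medians of -0.04 for immediate early genes (18 tested), -0.21 for sterol synthesis (13), -0.07 for p53 targets (11), -0.11 for cytochrome P450 and xenobiotic genes (14), -0.15 for ribosomal proteins (13), 0.09 for the proteasome (22) and -0.05 for the respiratory chain (23). Without saline replicate 2 at 6 h the respiratory chain median was 0.02 and the cytochrome P450 median -0.03, and with scan-day pair as a block the p53 median was 0.05. The acute phase and metallothionein list had Mt2A as its 1 called member of 11 tested (median 0.13).

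**Figure D4:**
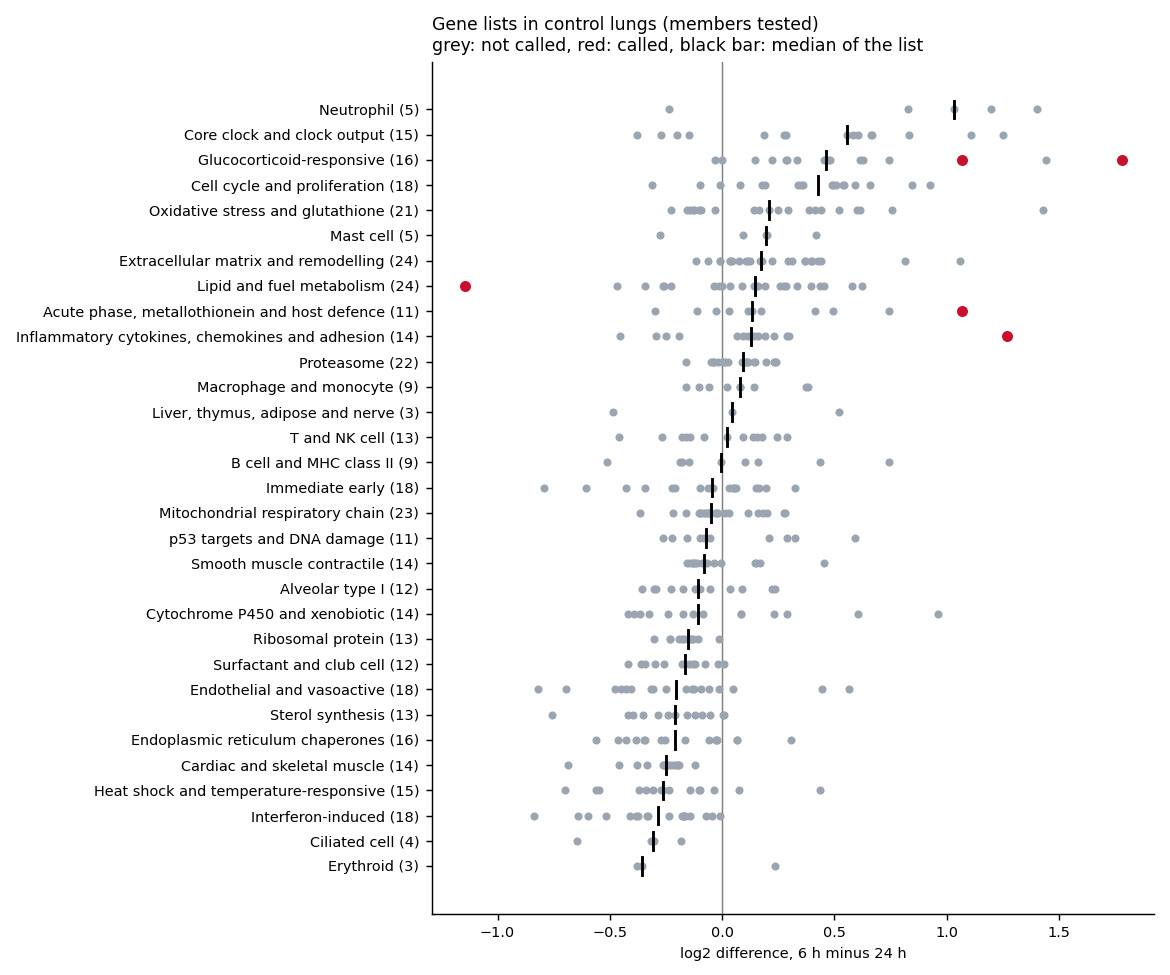
Log2 difference (6 h minus 24 h) of each tested member of the 31 gene lists in control lungs, with grey points for members that were not called, red points for called members, and a black bar for the median of a list. Red points are Fkbp5, Mt2A (in 2 lists), Il1r2 and Scd, and medians run from -0.36 for 3 red blood cell genes, a value whose sign turned with 1 animal left out, to 1.03 for neutrophil genes.

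**Figure D5:**
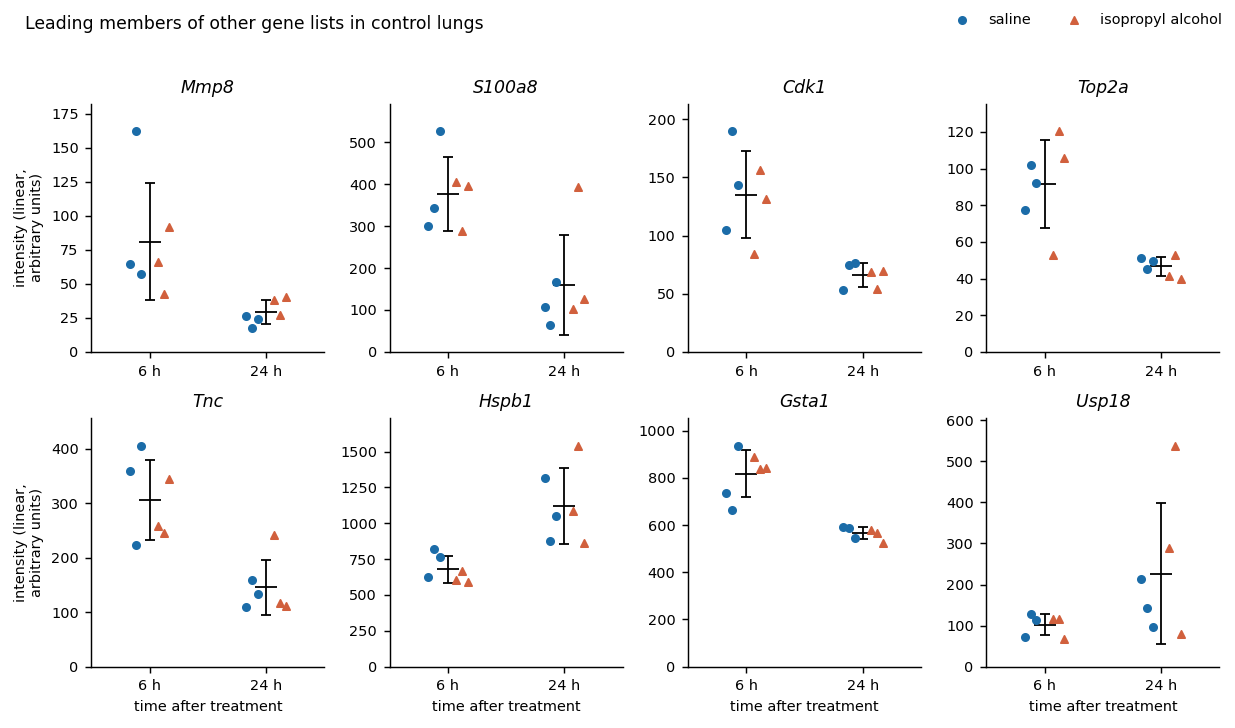
Intensity (linear, arbitrary units) of 8 genes that lead their lists without being called, in the 12 control animals, with points for animals, colours and shapes for vehicles, and bars for the mean and SD of 6 animals per time. Mmp8, Cdk1, Hspb1 and Gsta1 do not overlap between times, and the 24 h animals of Usp18 run from 79.8 to 538.0.

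A fit that took its estimate of spread from all 77 animals of the series called 452 probe sets (4.07%) for the same contrast of control animals, 188 higher (1.69%) and 264 lower (2.38%). In it, Per2 and Hlf were called higher at 6 h (adjusted p = 0.0112 for both), as were Mmp8 (0.00612) and S100a8 (0.04). Higher calls also included 5 of the 18 cell cycle genes, 6 of the 21 oxidative stress genes and 4 of the 24 matrix genes. Lower calls included 3 of the 16 endoplasmic reticulum chaperones, 3 of the 18 endothelial genes and 2 of the 15 heat shock genes. Tppp3 (adjusted p = 2.3e-04) and Usp18 (0.0374) were also called lower in this fit. Log2 differences are the same in both fits, and all 16 probe sets of the 12-animal fit were called in it.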

How the data were processed

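The authors deposited a table of linear intensity covering 15923 probe sets. The sources used here do not name the program that summarised them. Every array had a 2% trimmed mean of 150, as the values show, and this scaling was kept. The 57 control probe sets were dropped, 7 (the 10th percentile of the values) was added, log2 was taken and chips A and B of an animal were averaged. This offset understates differences of dim probe sets. The dimmest 30% of probe sets by mean value were not tested, and 11106 were. Genes came from the probe table (12783 probe sets with 1 gene, 312 with several, 2771 with none), and 12748 were matched to RefSeq.

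The main model held the 12 animals, with time and vehicle as terms, and was fitted by limma 3.58.1 (R 4.3.3, with statmod 1.5.0 for random blocks). P values were adjusted by Benjamini-Hochberg across every probe set tested, at 0.05. The code was tested on simulated data. Animals were the replicates, numbered within a group in accession order, and p values measure the spread between these animals. The settings files deposited with each array gave the scan day (17 days) per the file headers. They also held a description note for 7 of the 154 arrays, and these arrays were kept. Among the 12 animals, the note was on 1 chip of saline replicate 1 at 6 h. Alternatives were another offset, filter, floor, normalization, chip or set of animals, array weights, scan days as a block, ratios of 3' to 5' probe sets as covariates, and each animal left out. The number of arrays limits the precision.

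A gene was represented by its brightest tested probe set. The genes named were up to 15 called genes per direction without overlap between times, all tested clock genes, up to 4 called members of each other list or else the 2 with the smallest p, and the 2 genes with the smallest p for the vehicle difference. The comparison and the 31 lists were chosen with earlier results of these data known.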

Additional observations from a re-analysis of the deposited data

Results flagged for a closer look

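Of 174 sets of 6 animals examined, 17 held an animal whose gap to its nearest neighbour was over 0.625 of the range of the set, on the log2 scale, against about 8.7 by chance at 1 in 20. The ratio of gap to range follows each. At 6 h, isopropyl alcohol replicate 1 was highest for Pglyrp1 (0.7), replicate 2 was lowest for Rprml (0.649) and replicate 3 was lowest for Atp6v1c2 (0.693). Saline replicate 1 was lowest at 6 h for Cd74 (0.638) and Pdpn (0.664). Saline replicate 2 at 6 h, the animal that stood apart in its correlations, was highest for Usp2 (0.67) and lowest for Cyp4b1 (0.644) and Cfd (0.635). Saline replicate 3 at 6 h was highest for Hlf (0.807).

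At 24 h, saline replicate 3 was lowest for Per2 (0.704) and Sdhd (0.628), and highest for Clock (0.634) and for the beta-actin ratio of 3' to 5' probe sets (0.657). Isopropyl alcohol replicate 1 was lowest for Ccng1 (0.645), replicate 2 was highest for Spp1 (0.68), replicate 3 was highest for Cd14 (0.668), and saline replicate 1 was highest for Pdpn (0.733).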

How the results depend on the processing

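The main count of 16 was 16 to 18 with other offsets, 17 with a floor of 16 or the lowest 50% left out and 23 without the vehicle term. It was 8 without a filter, 6 with quantile normalization, 7 with chip A alone and 9 with chip B alone. It was 165 with all arrays and the animal as a random block, 452 with all animals, 219 with all control animals, 40 with array weights, 2 with scan days as a fixed block, 29 as a random block, 5 with the GAPDH and 8 with the beta-actin ratio, and 6 when the 3 animals scanned on the 13th and 14th days were dropped, a choice made after seeing the data. With single animals left out it was 5 to 21. The cause of these shifts was not tested. The saline count of 2 was 0 without a filter and 0 with quantile normalization, and 0 to 1 with single animals left out, while those of isopropyl alcohol and of the vehicle difference stayed 0 to 0. With single animals left out the counts against 24 h were 386 to 1202 at 30 min, 1 to 12 at 1 h and 3 to 47 at 3 h. The 1 h count of 5 was 2 without a filter and 3 with the lowest 50% left out. At 1 mg the 63 were 28 without a filter and 8 to 46 with single animals left out. None of the 16 called probe sets changed sign in 476 refits, and 174 of these lost the call. These refits compare the same control animals from which the 16 were chosen, so the kept sign is no separate support. Of 2052 refits of the 69 other named genes, 68 gained a call and 3 changed sign: Csnk1e (log2 difference -0.13) and Cd14 (-0.026) with the GAPDH ratio, and Alas2 (0.082) with scan days as a fixed block. Quantile normalization moved the median of all probe sets from 0.01 to -0.01. No paired analysis was possible because A and B number the 2 chips of 1 animal, and animals at 6 h and 24 h share no number. Dim probe sets near the offset, such as Il1r2 at 24 h, limit what can be seen.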
